A study of Mus musculus with 3 samples.

Results

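The enzymes and redox partners that turn pregnenolone into androgens and estrogens were followed through 2 lists of Ad4BP/SF-1 peaks from mouse Leydig cells. The members were 8 named genes out of 21938 protein-coding genes of GENCODE, and a peak belonged to a gene when it overlapped a window made of the gene body and 50 kb beyond each end. By this rule 9 vehicle peaks, of 5721, and 5 cAMP peaks, of 4025, lay near the members. Ad4BP/SF-1 (NR5A1), the nuclear receptor of steroid-producing cells, was immunoprecipitated from cultured Leydig cells of 9-week-old male ICR mice. One chromatin sample came from cells treated with vehicle and the other from cells treated with cAMP, the second messenger of luteinizing hormone. The cells were recovered from the testes of several animals together on a Percoll density gradient, and unattached cells were washed away. The dose and time of cAMP are not given in the sources used here. Each list came from 1 library, so every difference between vehicle and cAMP below is a description without a test or replicate error. The input DNA was not used here.

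Leydig cells make testosterone, and Ad4BP/SF-1 is known as the factor that switches on the genes of this synthesis. After side-chain cleavage has produced pregnenolone in the mitochondria, 3β-hydroxysteroid dehydrogenases (*Hsd3b1* and *Hsd3b6*) form the Δ4-ketosteroids. CYP17A1 performs the hydroxylase and lyase reactions that lead to C19 steroids, with electrons from the reductase POR and help from cytochrome b5 (*Cyb5a*). HSD17B3 reduces androstenedione to testosterone, after which SRD5A1 can make dihydrotestosterone and aromatase (*Cyp19a1*) can make estradiol.

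Peaks were called near 4 of the 8 genes, *Cyp17a1*, *Hsd17b3*, *Por* and *Cyp19a1*, and near none of *Hsd3b1*, *Hsd3b6*, *Cyb5a* and *Srd5a1*. The vehicle list held a peak near all 4 of the former, and the cAMP list near 3 of them, without *Cyp17a1*. The same window held a vehicle peak in 36.7% of all protein-coding genes, a cAMP peak in 28.9%, peaks of both lists in 22.5%, a peak of either in 43.1% and none in 56.9%. A peak in the vehicle list alone, as for *Cyp17a1*, was found for 14.3% of all genes, and one in the cAMP list alone, as for 0 of the members, for 6.37%. *Hsd17b3*, *Por* and *Cyp19a1* had peaks inside the gene body in each list, as did 6.42% of all genes. The vehicle peak of *Cyp19a1* lay inside the annotated gene body but outside the principal transcript. Counting each list alone, 12.6% of all genes had such a peak with vehicle and 9.16% with cAMP. The part of gene length in these gene-body counts was not tested. *Hsd17b3*, *Por* and *Cyp19a1* span 30965, 65294 and 102174 bp. Without a peak in the gene body, *Cyb5a* and *Srd5a1* span 41168 and 37994 bp, and *Cyp17a1*, *Hsd3b1* and *Hsd3b6* span 6008, 7601 and 8940 bp. The 4 of 8 members with a vehicle peak make 50% (95% exact Clopper-Pearson interval 15.7% to 84.3%), and the 3 of 8 with a cAMP peak make 37.5% (8.52% to 75.5%). Both intervals, which cover counting error only, contain the share of all genes. With 8 genes they are too wide to set the members apart from it. They also treat the genes as independent, though *Hsd3b1* and *Hsd3b6* share part of their windows. Each peak carries the score MACS gave it, which is minus 10 times the log10 of the p-value. It rises with sequencing depth, which is unknown for these lists, and its lowest values are 50 for vehicle and 50.01 for cAMP. The threshold in the study's methods is laxer than these lowest scores, and whether weaker calls were removed before deposition is not given in the sources used here. A region without a peak is therefore one without a deposited peak, and may still have been occupied or called.

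**Figure D1:**
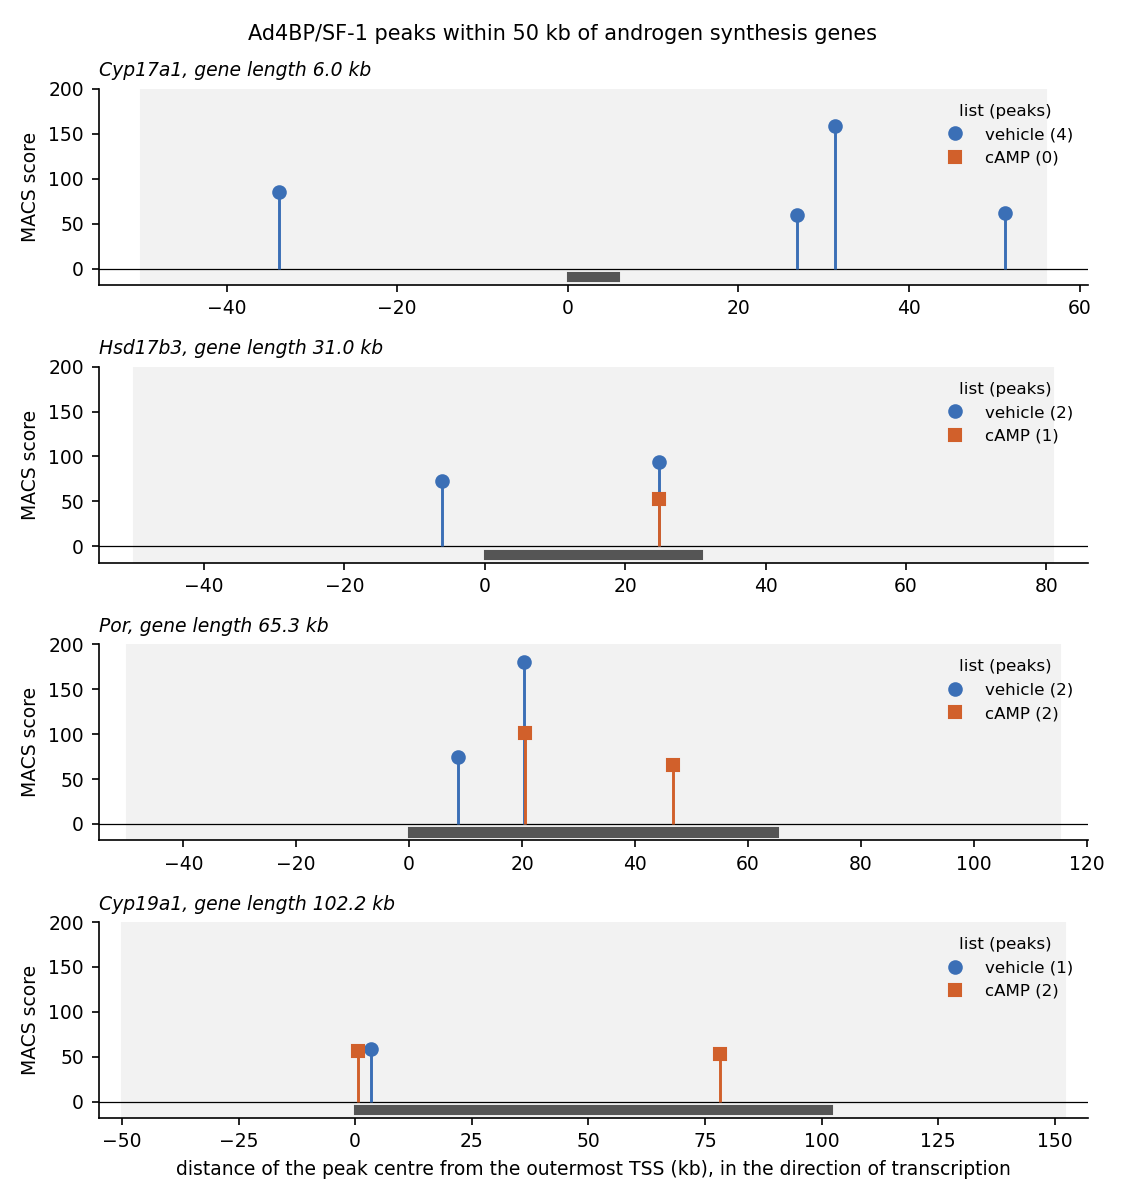
Ad4BP/SF-1 peaks near the 4 genes with a peak, with the distance of the peak centre from the outermost transcription start site on the x axis (kb) and the MACS score on the y axis (no unit); circles are vehicle peaks, squares cAMP peaks, the dark bar is the gene body and the grey area the window. The 4 *Cyp17a1* peaks lie on either side of the gene and only in the vehicle list, while *Hsd17b3* and *Por* each hold 1 site with a peak in both lists.

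*Cyp17a1* is encoded on chromosome 19 (mm10) between 46667165 and 46673172, minus strand. The vehicle list held 4 peaks in its window and the cAMP list held 0. All 4 lay outside the gene, 3 of them beyond its 3′ end and 1 upstream. The highest, from 46641647 to 46642122, scored 159.27 and ranked 550 of 5721. It was centred 25.3 kb beyond the 3′ end of *Cyp17a1*, inside intron 1 of its neighbour *Wbp1l*. A peak from 46646066 to 46646592 scored 59.41, and lay in intron 2 of *Wbp1l*. Another, from 46621576 to 46622179, scored 61.72 and was centred 1.52 kb upstream of the nearest annotated transcription start site (TSS) of *Wbp1l*. The upstream peak, from 46706708 to 46707360, scored 85.15 and was centred 33.9 kb from the *Cyp17a1* TSS, but 0.424 kb upstream of the TSS of *As3mt*, an arsenite methyltransferase gene. No *Cyp17a1* peak therefore had *Cyp17a1* as the gene with the nearest TSS, and with the gene body alone, with 10 kb on either side or by the nearest TSS the gene had no peak in either list.

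The 4 regions held 5 copies of the Ad4BP/SF-1 consensus, for which TCAAGGTC, TCAAGGCC, CCAAGGTC and CCAAGGCC were searched on both strands. The copies are shown in capitals with 30 bases on either side, to give the sequence at the sites near this gene. The consensus does not mark vehicle-only peaks, since the peaks common to both lists at *Hsd17b3* and *Por* hold it too. Each is read 5′ to 3′ on the strand of the copy, which was the minus strand in every case, and is named by its mm10 position.
chr19:46641862-46641929, the highest-scoring peak: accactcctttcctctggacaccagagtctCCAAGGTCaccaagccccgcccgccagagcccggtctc
chr19:46621900-46621967: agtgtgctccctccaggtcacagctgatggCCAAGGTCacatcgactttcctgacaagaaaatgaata
chr19:46646339-46646406: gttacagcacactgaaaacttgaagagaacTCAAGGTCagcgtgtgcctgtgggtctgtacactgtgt
chr19:46646122-46646189: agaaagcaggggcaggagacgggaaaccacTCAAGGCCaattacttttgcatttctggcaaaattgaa
chr19:46706972-46707039, at *As3mt*: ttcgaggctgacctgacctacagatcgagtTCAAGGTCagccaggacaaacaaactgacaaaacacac
All 5 were followed by A. The copy of the highest peak lay 12 bp from the peak centre, and the one at *As3mt* lay 28 bp from it.

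The nearest cAMP peak to *Cyp17a1*, from 46462743 to 46463384 with a score of 74.9, was 203780 bp away and nearest to the TSS of *Trim8*. On the other side the next cAMP peak began 457486 bp from the gene. The stretch between these cAMP peaks spanned 667 kb, and 24.0% of the gaps between neighbouring cAMP peaks were longer. The vehicle list had 5 peaks in that stretch. Among all protein-coding genes, 2.64%, or 579 genes, had 4 or more vehicle peaks in their window. Of these 579 genes 37, or 6.39%, had 0 cAMP peaks, and *Cyp17a1* and its neighbour *Wbp1l* are both among them with the same peaks. The number 4 is that of *Cyp17a1* itself, so these shares are a description. With cAMP peaks called from a library of unknown depth, weaker enrichment and fewer reads cannot be told apart.

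*Hsd17b3*, the testosterone-forming reductase of the testis, occupies 64058266 to 64089230 of chromosome 13 on the minus strand. Both lists held a peak in the 3′ part of the gene, which for vehicle spanned 64064020 to 64064727 and for cAMP 64064197 to 64064711. The cAMP peak lay wholly inside the vehicle peak, with 515 bp in common. The vehicle peak scored 94.43, above 70.4% of its list. The cAMP peak scored 52.18, above 10.3% of its list and close to the lowest score kept. Their centres fell in exon 7 and intron 6 of the principal GENCODE transcript, respectively, and both peaks overlapped 1 coding exon. The vehicle list held another peak upstream, from 64095045 to 64095559, centred 6.07 kb before the TSS, with a score of 73.2. It had no cAMP counterpart, and the nearest cAMP peak was 30.3 kb away. For both sites *Hsd17b3* was the gene with the nearest TSS. At the common site this was an internal TSS at 64063133, with the peak centres 1.24 (vehicle) and 1.32 kb (cAMP) upstream of it. The outermost TSS was 24.9 and 24.8 kb away from these centres. Each region held 1 copy of the consensus, both on the minus strand.
chr13:64064376-64064443, in both lists: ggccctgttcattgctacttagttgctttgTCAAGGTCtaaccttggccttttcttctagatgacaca
chr13:64095266-64095333, vehicle only: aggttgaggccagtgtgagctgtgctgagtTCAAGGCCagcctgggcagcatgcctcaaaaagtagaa
The copy in both lists lay 37 bp from the centre of the vehicle peak and 44 bp from that of the cAMP peak, and was followed by T.

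*Por*, the reductase that supplies electrons to CYP17A1 and aromatase, lies on the plus strand of chromosome 5 from 135670033 to 135735326. It carried the highest-scoring peak of all 8 genes, in intron 1 of the principal transcript. This peak spanned 135690125 to 135690761 in the vehicle list, with a score of 180.46 and rank 413. In the cAMP list it spanned 135690183 to 135690835, with a score of 101.52 and rank 899 of 4025. The 2 peaks shared 579 bp and were centred 1.29 and 1.35 kb downstream of the nearest annotated *Por* TSS. The vehicle list alone held a second *Por* peak, from 135678390 to 135678942 with a score of 74.13, in intron 1 of the longer transcript Por-208. The cAMP list alone held one from 135716423 to 135716978 with a score of 65.62, in intron 2. The nearest peaks of the other list were 11.2 and 25.7 kb away from them. Beside the common site, each list thus had a *Por* peak that the other lacked. The common peak held 1 copy of the consensus, the other 2 peaks held 2 copies each, and *Por* was the gene with the nearest TSS for all of them.
chr5:135690427-135690494, in both lists, plus strand: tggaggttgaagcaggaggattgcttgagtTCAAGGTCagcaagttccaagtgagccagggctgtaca
chr5:135678614-135678681, vehicle only, plus strand: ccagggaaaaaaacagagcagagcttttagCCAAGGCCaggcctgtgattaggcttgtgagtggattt
chr5:135678691-135678758, vehicle only, minus strand: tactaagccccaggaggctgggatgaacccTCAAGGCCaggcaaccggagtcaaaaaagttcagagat
The centre of the peak called only in the cAMP list is shown over 150 bases, because it holds 2 copies of TCAAGGTC in the same direction with the same letters before them.
chr5:135716625-135716774, cAMP only, plus strand: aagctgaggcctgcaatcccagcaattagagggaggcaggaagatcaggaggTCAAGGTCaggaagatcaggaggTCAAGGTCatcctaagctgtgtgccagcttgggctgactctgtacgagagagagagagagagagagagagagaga

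*Cyp19a1*, the aromatase gene, lies on the minus strand of chromosome 9 from 54165937 to 54268110 and is known for using several promoters in different tissues. All 3 of its peaks lay inside the gene body and scored low. The vehicle peak, from 54264490 to 54264884, scored 58.64, above 25.1% of its list, and was centred 3.42 kb downstream of the outermost TSS. A cAMP peak from 54267291 to 54267897 scored 56.37, above 24.3% of its list, and was centred 0.516 kb from the same TSS. These peaks did not overlap and were 2406 bp apart, so *Cyp19a1* was a gene with a peak in both lists that had no site in common. With lists of equal length, or by the nearest TSS, it had a peak in the cAMP list alone. Among protein-coding transcripts the nearest TSS to either was that of *Gldn*, and the outermost *Cyp19a1* TSS belongs to a processed transcript. Both peaks lay upstream of the principal transcript, which starts at 54193442. The vehicle list held no other *Cyp19a1* peak, so counting the gene among those with a vehicle peak in the gene body rests on transcripts other than the principal one. The second cAMP peak, from 54189777 to 54190152, scored 53.49 and lay in intron 1 of the principal transcript, 3.48 kb downstream of its TSS. The former 2 peaks each held 1 copy of the consensus, whereas the peak in intron 1 of the principal transcript was the single member peak of either list without one.
chr9:54264610-54264677, vehicle only, plus strand: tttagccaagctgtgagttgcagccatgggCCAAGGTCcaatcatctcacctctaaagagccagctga
chr9:54267425-54267492, cAMP only, plus strand: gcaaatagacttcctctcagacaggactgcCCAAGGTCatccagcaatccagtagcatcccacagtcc
The copy in the cAMP peak lay 135 bp from the peak centre, farther than most of the others.

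**Figure D2:**
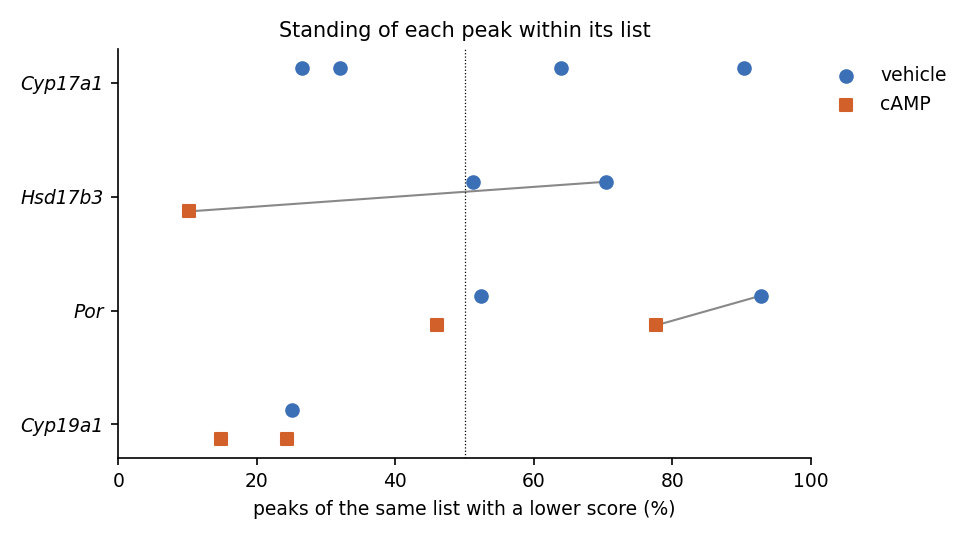
Each point is a peak near one of the 4 genes, placed by the share of peaks of its own list that score lower (x axis, %), with vehicle peaks as circles, cAMP peaks as squares, and lines joining peaks that overlap. The *Por* and *Hsd17b3* sites with a peak in both lists stand higher in the vehicle list, as do 55.5% of all such pairs, and all *Cyp19a1* peaks lie below 50%.

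Between the lists, the peaks near these genes with a counterpart were 2 of 9 for vehicle and 2 of 5 for cAMP, those at *Hsd17b3* and *Por*. Over whole lists, a counterpart was found for 37.9% of peaks with vehicle and 53.8% with cAMP. Both common sites scored higher in the vehicle list, by 42.25 at *Hsd17b3* and by 78.94 at *Por*. Of the 2171 pairs of overlapping peaks in the whole lists, 61.1% also scored higher in the vehicle list, with a median difference of 10.55, and in 55.5% of them the peak stood higher within the vehicle list than within the cAMP list. A larger difference than at *Por* was found in 14.6% of the pairs, and a larger one than at *Hsd17b3* in 27.5%. Genes of the preceding step, cholesterol import and side-chain cleavage, showed both orders. *Cyp11a1*, the cleavage enzyme itself, had its highest peak 30.7 kb downstream of the TSS, where it scored 123.87 with vehicle and 337.86 with cAMP. *Fdxr*, the reductase that feeds electrons to it, had its highest peak 15.6 kb upstream of its TSS in the vehicle list, where it scored 199.83. In the cAMP list it lay 15.7 kb upstream and scored 435.45. *Star*, which carries cholesterol into the mitochondria, had a highest score of 90.17 with vehicle and 79.67 with cAMP, at a site 44.9 and 44.8 kb upstream of its TSS. The nearest TSS to this site was that of *Ddhd2*, and the nearest to the *Fdxr* site was that of *Fads6*. For *Fdx1*, the ferredoxin, the highest scores were 76.67 and 99.52, at sites 0.018 and 8.70 kb from the TSS. Scores of libraries of unknown depth are not on one scale, and the part of depth in these differences was not tested.

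The 3β-hydroxysteroid dehydrogenase genes *Hsd3b1*, on chromosome 3 from 98852194 to 98859794, and *Hsd3b6*, from 98805504 to 98814443, had no peak in their windows. The genes lie 37750 bp apart on the minus strand and share 62250 bp of window, so that they are not independent of each other. The nearest vehicle peak, from 98931776 to 98932175, lay 71981 bp from *Hsd3b1* and 117332 bp from *Hsd3b6*, and scored 55.73. It held 2 copies of the consensus and was centred 38.7 kb upstream of the TSS of *Hao2*. The nearest cAMP peak, from 98069887 to 98070299, was 781894 bp from *Hsd3b1* and nearest to the TSS of *Notch2*. Of all protein-coding genes, 43.1% lay nearer to a vehicle peak than *Hsd3b1* did and 84.7% lay nearer to a cAMP peak. The relatives *Hsd3b2*, *Hsd3b3*, *Hsd3b4* and *Hsd3b5* in the same cluster had no peak in their windows either, with the nearest vehicle peak 169 to 302 kb away.

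The sequence of the *Hsd3b* windows differed from that of the other 6. Of the 32-base words in each window, 24.6% (*Hsd3b1*) and 28.6% (*Hsd3b6*) occurred more than once in the genome, against 7.68% to 11.3% in the others. Within 1 kb of the outermost TSS the shares were 7.11% and 3.71%. There *Por* had 11.9% and the other genes had 0% to 3.55%, so only *Por* was above both *Hsd3b* genes. Reads with several positions had been removed before peak calling, and the read length is not given in the sources used here. The *Hsd3b* windows also held the fewest copies of the consensus, 9 for *Hsd3b1* and 13 for *Hsd3b6*, or 8.36 and 11.9 per 100 kb, against 18.4 per 100 kb over the genome. The part of either measure in the lack of peaks was not tested.

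**Figure D3:**
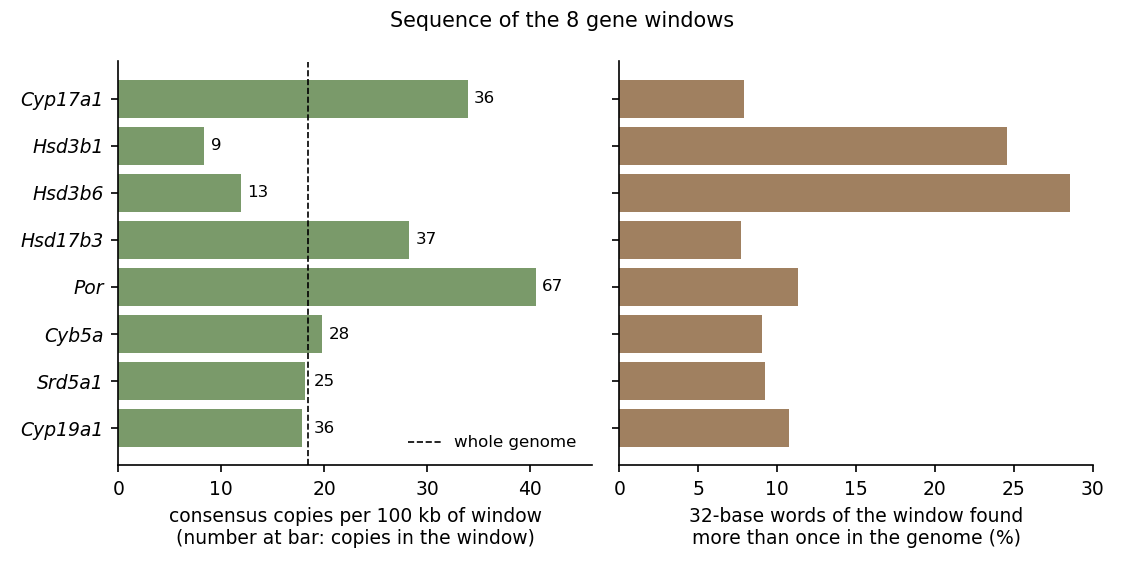
For the window of each gene, the left bars give copies of the consensus per 100 kb, with the number of copies beside each bar and the genome value as a dashed line, and the right bars give the share of 32-base words found more than once in the genome (%). *Hsd3b1* and *Hsd3b6* have the lowest density of copies and the highest share of repeated words, while *Por* has 67 copies.

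*Cyb5a*, whose product stimulates the lyase reaction of CYP17A1, was the gene farthest from a vehicle peak. It lies on chromosome 18 from 84838704 to 84879871. The nearest vehicle peak was 746467 bp away, beside *Zadh2*, and the nearest cAMP peak was 754323 bp away, beside *Tshz1*. Respectively 85.7% and 84.2% of protein-coding genes lay nearer to a peak. Its window nevertheless held 28 copies of the consensus, or 19.8 per 100 kb. *Srd5a1*, the 5α-reductase gene on chromosome 13 from 69573449 to 69611442, had the same nearest site in both lists, 106321 and 106272 bp away. There the peaks overlapped, with scores of 67.76 and 62.22, and their nearest TSS was that of *Ube2ql1*, 21.9 kb away. At this distance *Srd5a1* was close to the middle of all protein-coding genes, of which 50.8% lay nearer to a vehicle peak and 42.5% nearer to a cAMP peak.

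**Figure D4:**
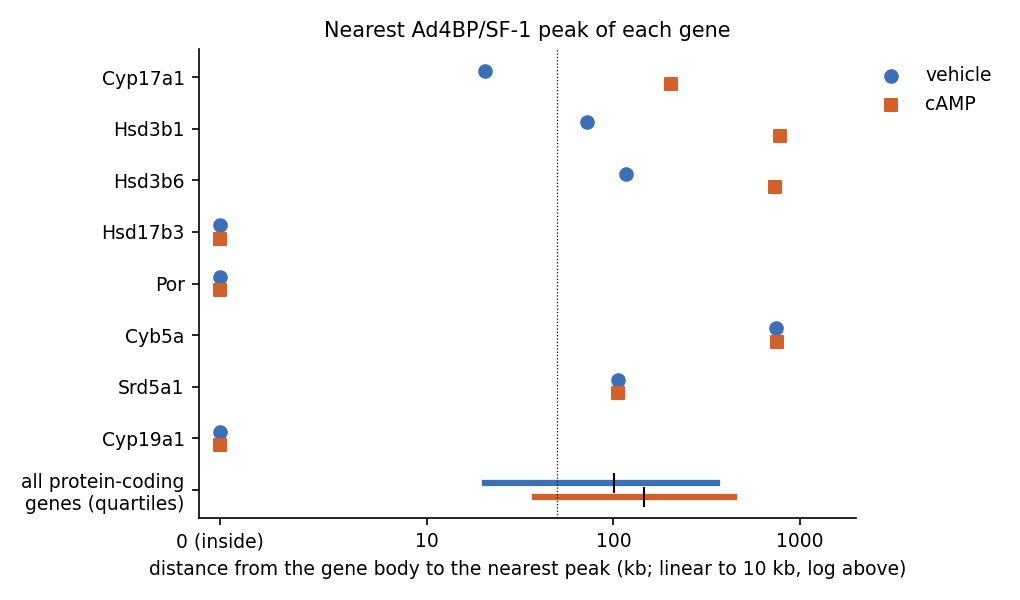
Distance from each gene body to the nearest peak (x axis, kb, linear to 10 kb and logarithmic above), with vehicle as circles and cAMP as squares. The dotted line marks 50 kb, and the bars at the bottom span the quartiles of protein-coding genes with the median as a tick. These are the genes with a peak of the list on their chromosome, 21755 for vehicle and 21938 for cAMP. *Hsd17b3*, *Por* and *Cyp19a1* have a peak inside the gene in both lists, *Cyp17a1* lies 20.6 kb from a vehicle peak and 204 kb from a cAMP peak, and *Cyb5a* lies farthest from a vehicle peak.

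All 9 vehicle peaks near these genes held the consensus, as did 4 of the 5 cAMP peaks, against 80.4% and 77.1% of all peaks of the lists. Together the peaks held 14 distinct copies, of which 6 read TCAAGGTC, 4 CCAAGGTC, 3 TCAAGGCC and 1 CCAAGGCC. Of the 11 copies in vehicle peaks, 10 lay within 100 bp of the peak centre, as did 81.7% of the copies in all vehicle peaks. An A followed 9 of the 11, and 81.4% of the copies in all vehicle peaks. Sequence that the reference masks as repeat held 5 of the 14 copies, namely those at *As3mt*, upstream of *Hsd17b3*, in the common *Por* peak and the pair in the cAMP peak of *Por*. Masked copies made up 37.1% of those in all vehicle peaks, 41.8% in all cAMP peaks and 40.4% in the genome.

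Most copies near these genes were in no peak. The 8 windows held 251 copies, counting those in the stretch common to *Hsd3b1* and *Hsd3b6* for each gene. Vehicle peaks contained 11 of them, or 4.38%, and cAMP peaks contained 5, or 1.99%. Over the genome, vehicle peaks contained 1.24% of 487156 copies and cAMP peaks 0.831%. Neighbouring copies share a peak and the genome is not matched to gene windows, so these shares were not compared. The *Por* window had 67 copies with 3 in vehicle peaks, and the *Srd5a1* window had 25 with none in a peak.

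RefSeq promoters on GRCm38.p6, from 250 bp before to 50 bp after the TSS, were matched for 6 of the 8 genes with 8 promoters in all, for *Hsd3b1*, *Hsd3b6*, *Hsd17b3*, *Por*, *Srd5a1* and *Cyp19a1*. One of them, the outermost of the *Cyp19a1* promoters, held a copy, CCAAGGCC from 54268138 to 54268145 on chromosome 9. It was 240 bp away from the nearer *Cyp19a1* cAMP peak and in no peak itself. Of all 32851 promoters of this length 5.73% held a copy, as did a promoter of 6.5% of all genes, so that 1 of 6 genes is a count too small to set apart from them. A vehicle peak overlapped 0 of these 8 promoters and a cAMP peak 0. Over all promoters the shares were 1.14% and 0.517%, and over all genes with a promoter 1.22% and 0.588%, so 0 of 8 is near the general share.

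The other genes of steroid synthesis showed a range of peak numbers. In the group for cholesterol import and side-chain cleavage, *Star*, *Cyp11a1*, *Fdx1* and *Fdxr* had a peak in the window in both lists and *Tspo* had one in neither. Of 24 other steroid-converting enzymes, 10 had a vehicle peak and 7 had a cAMP peak, and all 7 were among the 10. *Hsd17b12*, a 17β-hydroxysteroid and long-chain ketoacyl-CoA reductase, had a peak 12.5 kb downstream of the TSS that scored 208.28 in the vehicle list, and one 12.6 kb downstream that scored 80.29 in the cAMP list. *Hsd17b6*, *Hsd11b1* and *Cyp11b2* had a peak in the vehicle list alone. The nearest cAMP peak to *Cyp11b2* lay 50.8 kb away, just outside the window, and the highest vehicle peak of *Cyp11b2* is also that of its neighbour *Cyp11b1*, which counted as a gene with both. Of 7 electron-transfer partners, 5 had a vehicle peak and 3 had a cAMP peak. *Cyb5b*, the outer mitochondrial membrane relative of *Cyb5a*, had 4 vehicle peaks and 1 cAMP peak in its window. *H6pd*, which makes NADPH in the endoplasmic reticulum, had 6 and 4. The genes with any peak thus numbered 4 of 5, 10 of 24 and 5 of 7, beside 43.1% of all protein-coding genes.

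Peaks of a transcription factor do not measure the expression of the gene beside them, so the lists give no direct check of the cell type. Of 8 Leydig marker genes, among which *Cyp17a1*, *Hsd3b1* and *Hsd3b6* are themselves members, 4 had a vehicle peak in the window. They included *Nr5a1*, which encodes Ad4BP/SF-1, whereas the markers *Insl3* and *Lhcgr* had none in either list. Vehicle peaks lay near 2 of 5 Sertoli markers (*Amh* and *Sox9*), 1 of 3 germ cell markers (*Prm1*) and 0 of 2 macrophage markers. The cAMP list had peaks near 3, 1, 1 and 0 of these. Beside the 36.7% and 28.9% of all protein-coding genes with such a peak, these small counts do not separate the cell types.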

How the data were processed

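ChIP-seq libraries for Ad4BP/SF-1 from vehicle- and cAMP-treated Leydig cells were analysed, with 1 library per condition. Reads were aligned to mm10 by the authors using Bowtie (0.12.8 in the submitters' processing notes), those with several positions were discarded, and MACS called peaks in each library. The deposited score of a peak is minus 10 times the log10 of its p-value. Whether the input served as control is not given in the sources used here, and the lists hold no read numbers, so the depth is unknown.

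Starts were converted to count from 1. Peaks were assigned in Python 3.11.15 (numpy 2.4.6, pandas 2.3.3) to genes of GENCODE M21 (GRCm38, the sequence of mm10), and bedtools 2.31.1 gave the same 9 and 5 member peaks. A counterpart shared at least 1 bp. Intervals came from scipy 1.17.1 and plots from matplotlib 3.10.9. The functions were tested on simulated data. The named genes are the members, the genes with the TSS nearest to their peaks, and genes with a peak in the pathway lists. *Tspo*, the *Hsd3b* relatives, the RefSeq promoters and the markers were added beside them. The members and lists were chosen with earlier results of these data known. With 1 library per condition no test between conditions and no omission of a library was possible.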

Additional observations from a re-analysis of the deposited data

How the results depend on the processing

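Of 62 alternatives to 10 counts, 45 stayed within 1.5 times of the reported count. With scores of at least 75, 1 gene had a cAMP peak, 1 had peaks in both lists, and 4 vehicle peaks and 1 cAMP peak remained near the genes. At this score 22.4% of all genes had a vehicle peak and 14.6% a cAMP peak. With at least 100, 2 genes had a vehicle peak, 1 a cAMP peak, 1 both and 2 either, with 2 vehicle peaks and 1 cAMP peak, where 14.6% and 9.12% of all genes had one. Counted against counterparts that score at least 75 or at least 100, 1 vehicle peak had one, and 1 cAMP peak had one at 100. Vehicle peaks numbered 4 with the gene body only and 5 with 10 kb on either side. When each peak went to the gene with the nearest TSS, 2 genes had a vehicle peak, with 4 peaks. The share of all genes by the nearest TSS is not given here. Nor are the shares with peaks in both lists or in either at scores of at least 75 or 100. Stricter scores and narrower windows can only remove peaks, and the narrower windows left the 5 cAMP peaks in place. The nearest TSS gives each peak to 1 gene. Equal list lengths, peak centres, wider windows and other forms of the consensus left all counts they apply to within 1.5 times. The genes behind a count could change. *Cyp17a1* lost its vehicle peaks, and with them the difference between the lists, with the gene body only, with 10 kb and by the nearest TSS. No window could give it a cAMP peak, since the widest was 100 kb and the nearest such peak is 204 kb away. That peak is nearest to the TSS of *Trim8*, and by the nearest TSS *Cyp17a1* had no cAMP peak either. *Cyp19a1* had a cAMP peak alone with equal list lengths and by the nearest TSS, and *Hsd17b3* a vehicle peak alone with scores of at least 75. With scores of at least 75 *Cyp19a1* had no peak in either list, and with at least 100 neither gene had one. *Hsd3b1* gained a vehicle peak with 100 kb, a window in which 49.4% of all genes had one. What can be said of genes without a peak is limited by the unknown depth and the lowest score of 50. No paired analysis was possible because each condition has 1 sample and no result comes from a test.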

Other observations

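Sequences of other factors were also searched on both strands of the peaks near the androgen synthesis genes. The palindromic cAMP response element TGACGTCA was in 0 of the 9 vehicle and 0 of the 5 cAMP peaks, and in 0.699% and 0.770% of all peaks. TGANTCA, a pattern wider than the AP-1 sequences TGACTCA and TGAGTCA, was in 1 vehicle and 1 cAMP peak, beside 21.6% and 23.2% of all peaks. The GATA core GATAA was in 5 of the 9 and 3 of the 5, beside 49.4% and 45.5%. The nuclear receptor core AGGTCA, which overlaps a consensus copy that ends in GGTC and is followed by A, was in 7 of the 9 and 4 of the 5, beside 71.5% and 69.2%. With so few peaks these counts are a description of the regions, and a match is not a bound site.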
